A study of Mus musculus with 8 samples.

Results

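Genes of cholesterol synthesis, efflux and sensing were followed in cultured mouse fibro-adipogenic progenitors (FAPs). These stromal cells lie between muscle fibres and can form fat cells or fibroblasts. The 31 genes were taken by symbol, through GENCODE release M21, from the deposited table of 20781 genes, and all 31 had a row and passed the filter on low counts. According to the labels, the FAPs were taken from 3 uninjured muscles (quadriceps, gastrocnemius and tibialis anterior) of wild-type male mice, with the strain given as C57BL/6 and as C57BL/6J. After 48 h in culture they received vehicle or melatonin, the pineal hormone, for 24 h. Each condition had 4 libraries, described as biological replicates. No dose of melatonin and no composition of the vehicle is given in the sources used here, and the extraction text names longissimus dorsi, a muscle that the other labels do not name. Nothing says whether the libraries of a group came from different animals or from different wells, so p-values measure the spread between these libraries.

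Cells make cholesterol from acetyl-CoA along a chain of enzymes, first to mevalonate and squalene and then around the sterol ring. When sterols in the endoplasmic reticulum are low, the escort protein SCAP takes the transcription factor SREBP2 (gene Srebf2) to the Golgi for activation, and SREBP2 raises the transcription of these enzymes and of INSIG1, which holds SCAP back. When oxysterols accumulate, the liver X receptors (LXRs, genes Nr1h2 and Nr1h3) raise the transcription of the efflux pumps ABCA1 and ABCG1 and of MYLIP, which marks lipoprotein receptors for degradation. In cells that store fat, lipid droplets also hold cholesterol esters, made by SOAT1.

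Promoter stretches of 4 genes are shown first, chosen after the motif matches and changes were known, and they are not typical of the rest. Hmgcs1 is shown for its sterol element, though it did not pass the test, Mvk for having the most CCAAT boxes, Nsdhl as one of the enzyme genes that rose most, and Abca1 for its LXR motif. The stretches below end at the base before the RefSeq start, on GRCm38.p6, written 5′ to 3′ on the strand of the gene, and were shortened where an annotated exon begins. Capitals mark the letters CCAAT or ATTGG (the CCAAT box and its reverse, a site of the factor NF-Y, which works with SREBP), the letters TCACNCCAC (a sterol regulatory element, the site of SREBP) and, in Abca1, the reverse of a DR4 element, searched as 2 copies of GGTNA with 5 bases of any kind between them (half-sites of the kind bound by LXR).
Hmgcs1, chr13:119690151-119690350, plus strand: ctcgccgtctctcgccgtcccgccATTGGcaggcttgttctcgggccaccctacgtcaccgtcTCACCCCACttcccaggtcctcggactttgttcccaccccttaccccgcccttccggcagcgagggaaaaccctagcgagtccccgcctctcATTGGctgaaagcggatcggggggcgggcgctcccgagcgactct
Mvk, chr5:114444069-114444268, plus strand: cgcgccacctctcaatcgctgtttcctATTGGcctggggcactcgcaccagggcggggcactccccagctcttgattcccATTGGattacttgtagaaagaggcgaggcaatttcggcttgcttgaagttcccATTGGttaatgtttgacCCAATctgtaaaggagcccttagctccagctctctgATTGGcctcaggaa
Nsdhl, chrX:72918412-72918520, plus strand: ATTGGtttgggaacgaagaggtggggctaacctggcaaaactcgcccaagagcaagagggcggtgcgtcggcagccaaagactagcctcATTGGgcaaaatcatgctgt
Abca1, chr4:53159896-53160095, minus strand: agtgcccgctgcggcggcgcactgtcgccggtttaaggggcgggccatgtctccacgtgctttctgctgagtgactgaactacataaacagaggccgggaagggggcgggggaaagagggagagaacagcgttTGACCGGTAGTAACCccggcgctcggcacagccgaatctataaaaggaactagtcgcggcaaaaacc
The Hmgcs1 stretch holds the sterol element followed by a CCAAT box read in reverse, with another CCAAT box before it. The stretch of Mvk holds 5 CCAAT boxes on both strands, and that of Nsdhl holds 2. Stretches of Mvd and Ebp, cut in the same way and not printed, hold 2 each, that of Sc5d holds 1, and of the stretches before 2 starts of Pmvk one holds 1 and the other 0. In all, 25 of the 31 genes had a promoter window of 250 bases before and 50 after the start, and Fdps, Fdft1, Sqle, Stard4, Npc1 and Abcg1 had none. Matches were sought on both strands, and matches of different motifs were counted separately, whether or not they overlapped. A gene with more than 1 window, as 4 of the 31 had, counted if any of them matched. A CCAAT box stood in the windows of 14 of 15 synthesis enzymes (the exception was Acat2) and in 42.3% of the tested genes with a window (37.4% of all 32851 windows). Of the enzyme genes that rose, 11 of 12 held one, and of those that did not pass the test, 3 of 3. Dhcr7 had 3 windows, and its CCAAT boxes lay in that at chr7:143829964-143830263, not in that at its annotated start. A GC box (GGGCGG) stood in 14 of 15 enzyme windows and in 66.2% of the tested genes (35.7% of all windows). The sterol element in these exact letters stood in 1 of 15, Hmgcs1, against 1.43% of tested genes (1.24% of all windows). The LXR motif stood in 1 of 25 members, Abca1, starting 67 bases before the start, against 0.58% of tested genes (0.718% of all windows). These are letter matches only.

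The libraries held 35584931 to 52401153 counts, and the smallest count of any of the 31 genes in a library was 424. Levels below are in CPM (counts divided by TMM-scaled library size, on the usual CPM scale, listed for replicates 1 to 4), differences are log2 fold changes of melatonin over vehicle ± standard error, and adjusted p-values come from edgeR over all 16565 tested genes. The FAP markers Pdgfra (569.6 and 465 CPM, vehicle and melatonin means) and Ly6a (336 and 224 CPM) were abundant in both groups. Dpp4 (2.33 and 1.196 CPM) and Pi16 (8.13 and 5.85 CPM) were low in both, and Pi16 did not pass the test. Dcn went from 911 to 351 CPM (log2 fold change -1.38) and Cxcl14 from 345 to 70.5 CPM (-2.29). Among 10 FAP markers 5 fell and 0 rose at the threshold, and all 9 adipocyte markers that could be tested rose. Of all tested genes 18.5% fell and 18.1% rose. Mitochondrial genes took 1.05 to 1.301% of counts with vehicle and 2.09 to 2.44% with melatonin, and the part of this difference in the results was not tested. Melatonin replicate 4 was the lowest of the 4 melatonin libraries for 13 of the 31 genes and the highest for 10.

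With melatonin, 17 of the 31 genes rose, 4 fell and 10 did not pass the test (edgeR adjusted p under 0.05). Over all tested genes 36.5% passed, 18.1% higher and 18.5% lower, while among the 31 genes 54.8% were higher and 12.9% lower. The 31 genes were chosen with earlier results of these data known, so this contrast is a description only. The median log2 fold change of the 31 genes was 0.31, beside 0.01 over all tested genes. A difference of at least 2-fold passed for 3 of the 31 (Dhcr7, Abcg1 and Ch25h), a share near the 10.0% of all tested genes. The median size of the log2 fold change, without regard to sign, was 0.38 for the 31 genes and 0.30 for all tested genes. The 4 libraries of one group lay wholly above those of the other for 20 of the 31 genes, beside 37.7% of all tested genes. Scaled by library totals alone, a setting that moved the median of all tested genes from 0.01 to 0.17, 22 of the 31 genes were called higher and 3 lower. Over all tested genes that setting called 5099 higher and 2237 lower, in place of 2992 and 3062.

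**Figure D1:**
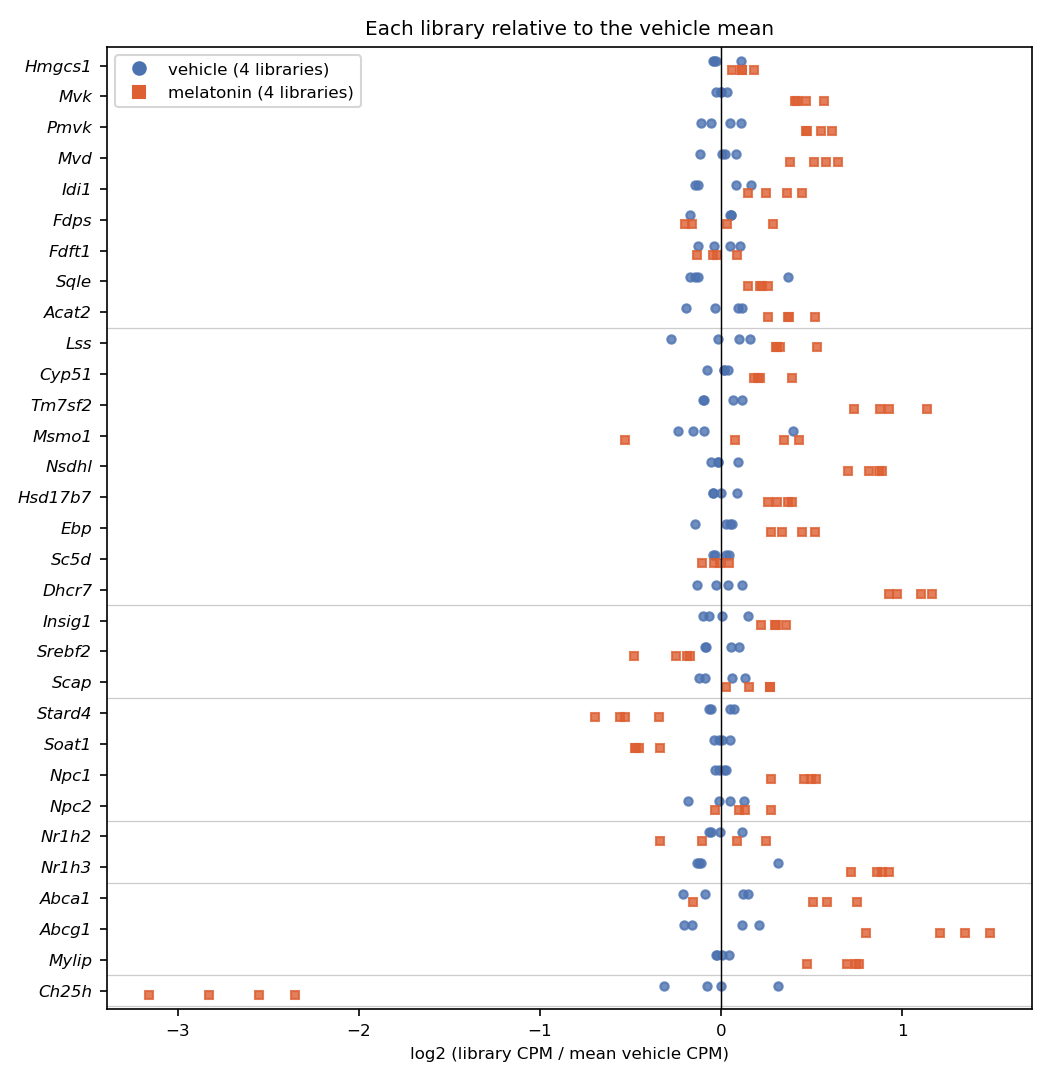
Each point is 1 library's CPM over the mean vehicle CPM of the gene, on a log2 axis, for the 31 genes grouped by role from the early enzymes (top) to Ch25h (bottom); circles are the 4 vehicle and squares the 4 melatonin libraries. Dhcr7, Tm7sf2, Nsdhl, Nr1h3 and Abcg1 lie to the right of all vehicle libraries, and Ch25h lies more than 2 log2 units to the left.

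Synthesis enzymes rose or did not pass the test. Of the 18 enzyme genes, 12 rose and 0 fell (0 also with DESeq2, with limma-voom and at an unadjusted edgeR p under 0.05), with a median of 0.35. Their summed level was 1210 to 1361 CPM in the vehicle libraries and 1539 to 1633 CPM in the melatonin libraries, without overlap. In the sterol ring part 7 of 9 genes rose (median 0.37), and in the part up to squalene epoxide 5 of 9 (median 0.31). That difference in counts between the parts was not tested.

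The largest increases among the enzymes were those of Dhcr7, Tm7sf2 and Nsdhl, which act after the ring has closed. Dhcr7 encodes the reductase that completes cholesterol in the Kandutsch-Russell branch (ENSMUSG00000058454, chromosome 7, 143823145 to 143848410, plus strand). Its level was 47.0, 44.8, 41.6 and 49.5 CPM with vehicle and 89.7, 102.6, 98.3 and 87.0 CPM with melatonin. The groups lay far apart, and the difference was 1.05 ± 0.079 (adjusted p = 9.2e-06), 2.06-fold. Tm7sf2 encodes a sterol reductase that acts soon after Cyp51. It had 19.6, 22.7, 21.9 and 19.7 CPM with vehicle and 39.8, 34.9, 38.5 and 46.1 CPM with melatonin, with replicate 4 the highest (0.93 ± 0.098, adjusted p = 7.1e-05). Nsdhl, a dehydrogenase gene on the X chromosome whose product helps to remove methyl groups from the ring, had 59.1, 54.7, 54.8 and 53.3 CPM with vehicle. With melatonin it had 97.6, 102.6, 90.3 and 101.7 CPM, all above every vehicle library (0.82 ± 0.065, adjusted p = 1.2e-05).

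Other genes of the ring part moved less. Ebp, a sterol isomerase gene, rose by 0.40 ± 0.078, Lss, the cyclase gene that closes the ring, by 0.37 ± 0.10, and Hsd17b7, a ketoreductase gene, by 0.33 ± 0.061. Cyp51, the lanosterol demethylase gene, rose by 0.25 ± 0.065 (adjusted p = 0.013). Every one of these 4 genes was higher in every melatonin library than in any vehicle library. Sc5d, a desaturase gene, had -0.03 ± 0.058 and overlapping groups. The methyl oxidase gene Msmo1 had 42.9, 47.4, 66.6 and 45.4 CPM with vehicle and 68.1, 64.5, 53.3 and 35.03 CPM with melatonin. Its groups overlapped widely, and its standard error, 0.217, was the largest among the 31 genes.

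In the part up to squalene epoxide, the genes of 3 successive steps from mevalonate to isopentenyl diphosphate rose by similar amounts. Mvk, mevalonate kinase, had 53.4, 54.3, 54.4 and 55.6 CPM with vehicle and 75.4, 72.8, 72.3 and 80.8 CPM with melatonin (0.47 ± 0.06, adjusted p = 2.2e-04). Pmvk, the next kinase, rose by 0.53 ± 0.082 and Mvd, the decarboxylase, by 0.53 ± 0.074, and neither had overlapping groups. Acat2, which joins acetyl-CoA units at the start, rose by 0.38 ± 0.085. Idi1, the isomerase gene, rose by 0.31 ± 0.097 (adjusted p = 0.032) with overlapping groups, and without vehicle replicate 2 or 3, or melatonin replicate 2 or 3, it no longer passed (adjusted p = 0.0515 to 0.0899). Lss and Idi1 also lost their calls with the replicate number as a block (adjusted p = 0.0515 and 0.0642).

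The remaining 4 genes of that part did not pass the test. Hmgcs1, the synthase gene before mevalonate, whose promoter is printed above, had 147, 145, 145 and 162 CPM with vehicle and 162, 162, 169.9 and 156 CPM with melatonin. Vehicle replicate 4 lay among the melatonin libraries (0.12 ± 0.061, adjusted p = 0.16). Fdps and Fdft1, which build farnesyl diphosphate and squalene, had differences of 0.00 ± 0.11 and -0.03 ± 0.072. Sqle, the epoxidase gene, had 97.6, 96.6, 94.7 and 138 CPM with vehicle and 124, 128, 125 and 118 CPM with melatonin. Only vehicle replicate 4 stood above the melatonin libraries, and without it Sqle passed (0.36, adjusted p = 0.0027) where the fit over all libraries gave 0.21 ± 0.12 (adjusted p = 0.19).

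**Figure D2:**
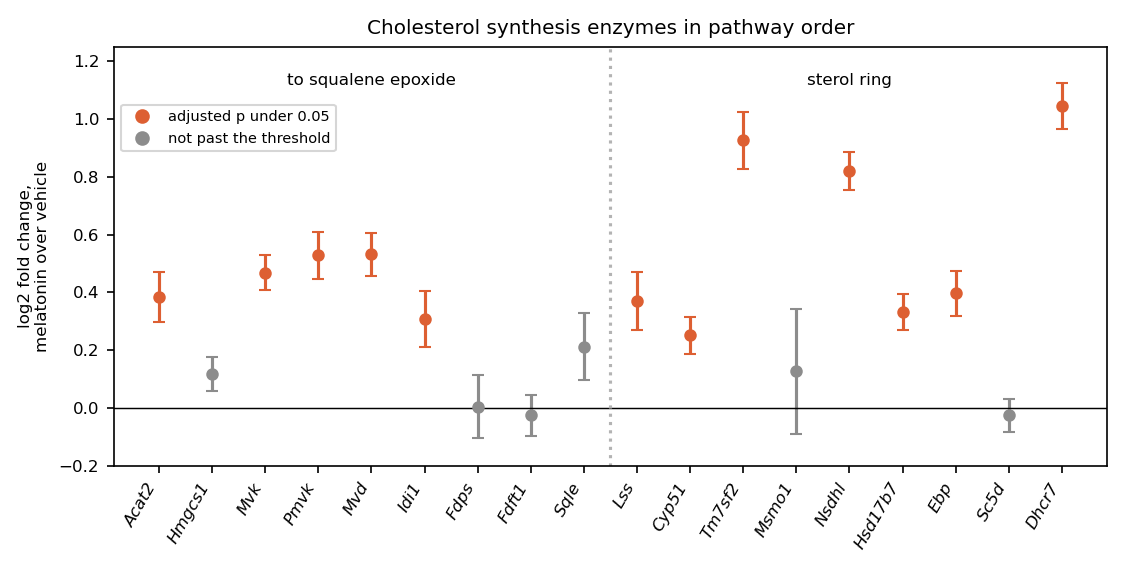
Points are edgeR log2 fold changes (melatonin over vehicle, n = 4 and 4) of the 18 synthesis enzymes in pathway order, bars are standard errors, and the dotted line divides the steps up to squalene epoxide from those of the sterol ring. Dhcr7, Tm7sf2 and Nsdhl stand at 0.82 to 1.05, and Fdps, Fdft1 and Sc5d lie within 0.03 of 0.

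Some counts may be shared with neighbours. Where exons overlap on the same strand, this is possible whatever the strand setting. How reads that lie in more than 1 gene were counted is not given in the sources used here. Where exons overlap on the other strand, sharing also depends on the use of strand in counting, which is not given there. Exons of Fdps share 1124 of 4208 bases with Gm43738 and those of Tm7sf2 share 532 of 4403 with Vps51, both on the same strand. Those of Fdft1 share 774 of 4227 with Ctsb on the other strand. Scap shares 985 of 7443 with 5830462I19Rik, Npc1 511 of 11317 with Rmc1, Cyp51 166 of 4415 with Akap9 and Ch25h 159 of 1387 with Gm26902, all on the other strand. Of these neighbours, Gm26902 fell (-1.60, adjusted p = 7.9e-05) and Rmc1 rose (0.34, adjusted p = 0.0066), each in the direction of its partner, and the part of shared reads in this was not tested. Gm43738 (0.60, adjusted p = 0.31), 5830462I19Rik (0.38, adjusted p = 0.23), Vps51 (0.15, adjusted p = 0.27), Ctsb (0.05, adjusted p = 0.62) and Akap9 (-0.44, adjusted p = 0.13) did not pass the edgeR test. The exons of Lss, Hmgcs1, Idi1 and Nr1h3 overlap genes that were not tested.

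The sensors did not move together. Insig1 had 106, 108, 114 and 126 CPM with vehicle and 140.2, 139.9, 146 and 132 CPM with melatonin, without overlap (0.30 ± 0.069, adjusted p = 0.0077). Srebf2 had 271, 269.9, 298 and 307 CPM with vehicle and 252, 241, 255 and 205 CPM with melatonin, so that every melatonin library was lower (-0.27 ± 0.084, adjusted p = 0.032). That call was lost without vehicle replicate 3 or 4, without melatonin replicate 2, with the replicate block (adjusted p = 0.0615 to 0.0917 over these 4) and with library totals (-0.11, adjusted p = 0.33). Scap, with 0.19 ± 0.081 and overlapping groups, did not pass (adjusted p = 0.10), and without melatonin replicate 4 it did (0.24, adjusted p = 0.020).

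Among genes of sterol transport and storage, 2 fell and 1 rose. Soat1, which esterifies cholesterol for storage, had 73.0, 73.8, 76.1 and 71.5 CPM with vehicle and 53.0, 53.7, 53.2 and 58.3 CPM with melatonin (-0.43 ± 0.059, adjusted p = 3.6e-04). Stard4, a carrier of sterols between membranes and itself a known SREBP target, had 32.7, 35.7, 32.5 and 35.2 CPM with vehicle and 20.99, 23.2, 26.8 and 23.6 CPM with melatonin (-0.53 ± 0.087, adjusted p = 0.0011). In both genes the lowest vehicle library stood above the highest melatonin library. Npc1, the membrane transporter that exports cholesterol from lysosomes, had 72.8, 71.6, 74.2 and 74.7 CPM with vehicle and 106, 101, 103 and 88.9 CPM with melatonin (0.44 ± 0.066, adjusted p = 6.2e-04). Its soluble partner Npc2 did not pass (0.12 ± 0.088), with about 1077 ± 95.6 CPM (SD, n = 4) with vehicle and 1172 ± 103 CPM with melatonin.

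Of the LXR receptors, Nr1h3 rose and Nr1h2 did not pass the test. Nr1h3, which encodes LXR alpha (ENSMUSG00000002108, chromosome 2, 91184061 to 91202834, minus strand), had 11.3, 11.4, 11.2 and 15.2 CPM with vehicle and 20.1, 23.3, 22.2 and 22.6 CPM with melatonin. Vehicle replicate 4 stood above its group but below every melatonin library (0.85 ± 0.12, adjusted p = 3.4e-04). Nr1h2, which encodes LXR beta, had 69.8, 75.9, 67.5 and 66.9 CPM with vehicle and 83.3, 65.1, 74.4 and 55.4 CPM with melatonin, a wider spread around a similar mean (-0.01 ± 0.12). Per exon length, Nr1h2 (20.9 ± 1.22 RPKM, SD, n = 4) exceeded Nr1h3 (4.87 ± 0.787 RPKM) with vehicle, and the levels were 20.7 ± 3.57 and 8.77 ± 0.545 RPKM with melatonin.

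Of the 3 LXR targets, Abcg1 and Mylip rose and Abca1 did not pass the test. Abcg1, an efflux pump gene (ENSMUSG00000024030, chromosome 17, 31057675 to 31117988, plus strand), had 8.79, 10.6, 11.3 and 8.5 CPM with vehicle and 27.5, 22.7, 24.9 and 17.1 CPM with melatonin. The groups did not overlap, and the difference was 1.23 ± 0.16 (adjusted p = 2.1e-04), 2.35-fold. Mylip had 35.97, 36.9, 35.2 and 35.2 CPM with vehicle and 59.98, 60.8, 58.0 and 49.8 CPM with melatonin (0.67 ± 0.076, adjusted p = 9.9e-05). Abca1, whose promoter holds the LXR motif, had 147, 117, 127 and 149.95 CPM with vehicle and 192, 203, 227 and 122 CPM with melatonin. Melatonin replicates 1 to 3 stood above every vehicle library and replicate 4 below 3 of the 4, and the difference of 0.46 ± 0.18 did not pass (adjusted p = 0.071). Without that library it was 0.63 and passed (adjusted p = 8.8e-04), and over all libraries it passed with DESeq2 (adjusted p = 0.0391).

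LXRs and their efflux targets are also abundant in macrophages and adipocytes, whose markers are given beside these results. Of 14 macrophage markers 4 rose (C1qa, C1qb, C1qc and Mrc1) and 2 fell (Csf1r and Cd14), and 0 were without counts in a library. Their summed level was 548 to 829 CPM with vehicle and 364 to 680.0 CPM with melatonin, lowest in melatonin replicate 4. Most of this sum was Lyz2, with means of 444 of 668 CPM with vehicle and 398 of 585 CPM with melatonin. Lyz2 did not pass the edgeR test (adjusted p = 0.58), so the sum says little of the other markers. The 9 adipocyte markers, which all rose, summed to 227 to 257 CPM with vehicle and 1148 to 1539 CPM with melatonin, and again replicate 4 was the lowest melatonin library. Of other cell types, 1 of 6 satellite cell and myoblast markers (16.7%) and 1 of 8 endothelial markers (12.5%) rose. Of 8 pericyte and smooth muscle markers 2 rose and 2 fell (25% each). No marker of the satellite cell and endothelial lists fell. The endothelial markers summed to 33.0 to 41.1 CPM with vehicle and 51.2 to 59.4 CPM with melatonin, and Tek, the one that rose, had means of 17.1 and 35.3 CPM. The sums of the satellite cell and of the pericyte lists overlapped between groups. Over all tested genes 18.1% were higher and 18.5% lower, and these lists are too short to be compared closely with those shares. In bulk RNA, fewer cells of a type and less RNA per cell cannot be told apart, and the part of these cell types in the results was not tested.

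Ch25h had the largest change of the 31 genes. It encodes the enzyme that hydroxylates the side chain of cholesterol to an oxysterol, a ligand of LXR and of INSIG proteins, and is known as an interferon- and inflammation-induced gene (ENSMUSG00000050370, chromosome 19, 34473778 to 34475164, minus strand). Its level was 175, 166, 218 and 141 CPM with vehicle and 29.9, 34.3, 24.7 and 19.6 CPM with melatonin. The lowest vehicle library stood far above the highest melatonin library, and the difference was -2.69 ± 0.19 (adjusted p = 1.2e-05), 6.45-fold lower with melatonin. Across 18 alternative settings its log2 fold change ranged from -2.81 to -2.53 and passed in each. Its antisense neighbour Gm26902, given above, also fell.

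**Figure D3:**
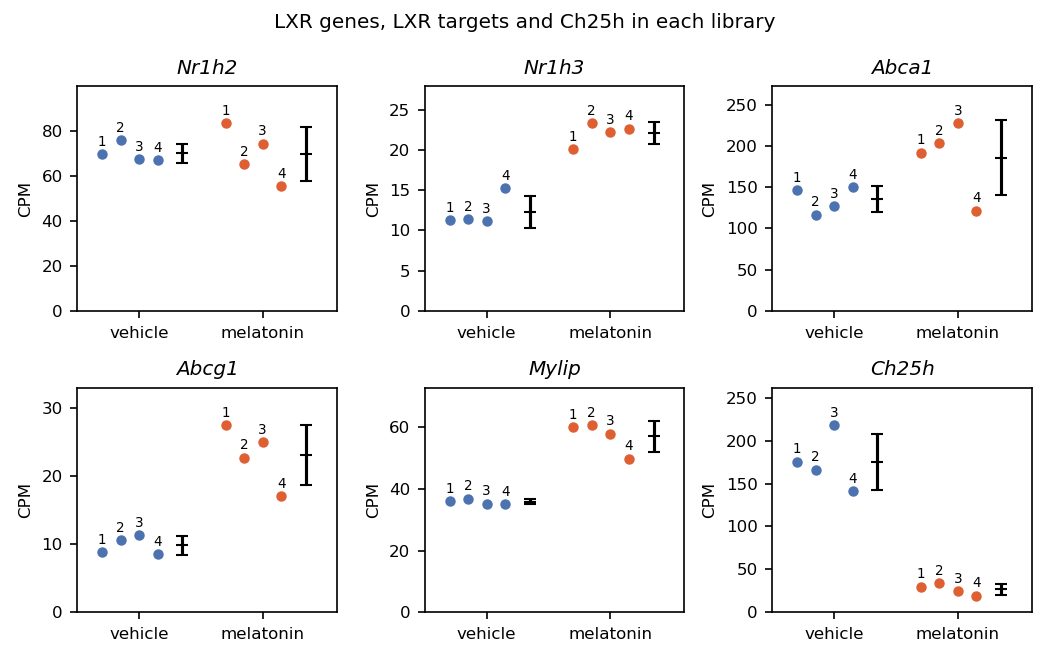
CPM of the LXR genes Nr1h2 and Nr1h3, the LXR targets Abca1, Abcg1 and Mylip, and Ch25h in each library, numbered by replicate, with the mean and SD of n = 4 at the right of each group; every axis starts at 0. Melatonin replicate 4 is the lowest melatonin library for each gene shown except Nr1h3, and Ch25h falls from 141 to 218 CPM to 19.6 to 34.3 CPM.

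Levels per exon length ordered the genes. With vehicle, Npc2 was the highest (198 ± 17.6 RPKM, SD, n = 4, the CPM divided by exon length in kilobases) and Ch25h second (126 ± 23.2 RPKM), and their ranges did not overlap. Srebf2 (39.9 ± 2.66 RPKM), Fdps (39.1 ± 2.92), Insig1 (36.7 ± 2.89) and Mvd (35.1 ± 2.01) followed, each within the spread of the next. The lowest was Abcg1 (1.34 ± 0.189 RPKM), below Lss (4.43 ± 0.57) and Tm7sf2 (4.76 ± 0.359). With melatonin, Ch25h went from rank 2 to rank 16 of the 31 genes (19.6 ± 4.61 RPKM), Mvd was second (50.8 ± 3.89 RPKM), and Nsdhl went from rank 13 (19.4 ± 0.878 RPKM) to rank 6 (34.4 ± 1.96 RPKM). With the longest transcript as the length, 4 of the 5 highest genes with vehicle were the same, and Hmgcs1 took the place of Insig1. Abcg1 stayed the lowest (1.68 RPKM), but Nr1h3 (6.17) and Stard4 (6.68) came next above it, below Tm7sf2 (6.80) and Lss (6.83).

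**Figure D4:**
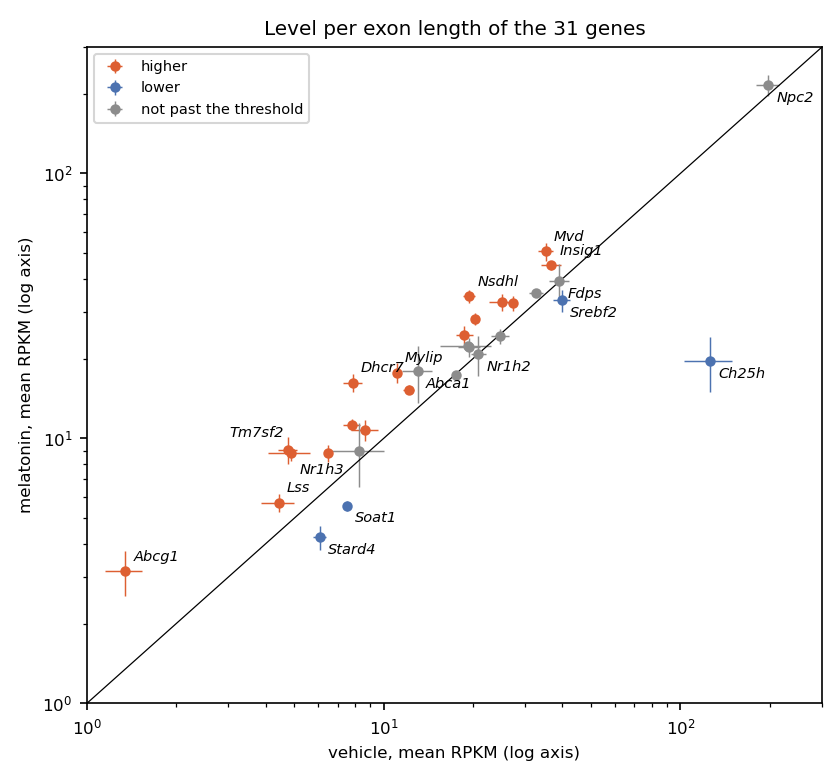
Mean RPKM with vehicle (x) and melatonin (y), both on log axes, for the 31 genes, with SD of n = 4 as bars and the line of equal level; colours give the edgeR call. Npc2 stands alone at about 198 and 215 RPKM, and Ch25h (126 to 19.6 RPKM) lies farthest below the line.

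Further genes of the same pathways were read from lists made by function, with earlier results of these data known. Their shares are to be read beside 18.1% higher and 18.5% lower over all tested genes. Of 9 other genes near sterol synthesis that could be tested, 5 rose (55.6%) and 1 fell (11.1%), with a median of 0.21. Acat1, which makes acetoacetyl-CoA in mitochondria, rose by 0.47 ± 0.064, and Por, which passes electrons to Cyp51 and Sqle, by 0.45 ± 0.075. Nus1, a subunit gene of the enzyme that makes dolichol from the same isoprenoid pool, went from 139 ± 5.11 to 86.2 ± 6.35 CPM (-0.69 ± 0.068, adjusted p = 4.3e-05). Of 9 other genes of the SREBP machinery, 1 rose and 1 fell (11.1% each), below the shares of all tested genes. Srebf1, the gene of the SREBP of fatty acid synthesis, rose by 0.20 ± 0.063 (adjusted p = 0.030), and Insig2, the paralog of Insig1, fell by 0.47 on the log2 scale (adjusted p = 0.0058). Without vehicle replicate 1, 2 or 4, or with the replicate block, Srebf1 no longer passed.

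Of 17 other LXR targets and partners, 8 rose (47.1%) and 2 fell (11.8%), with a median of 0.43. Lpl, which releases fatty acids from lipoproteins, went from 620.5 ± 41.7 to 1440.3 ± 237 CPM (1.22 ± 0.12), and the desaturase gene Scd1 from 437 ± 10.3 to 753 ± 123 CPM (0.78 ± 0.11). These are also genes of adipocytes, whose markers rose as given above. The transporter genes Abca3 (-0.60 ± 0.11) and Abca2 (-0.36 ± 0.11, adjusted p = 0.025) fell, and the call of Abca2 was lost without vehicle replicate 3 or 4 or melatonin replicate 2 and with library totals.

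Of 18 genes of sterol transfer and lysosomal sterol handling, 2 rose and 2 fell (median -0.05). That is 11.1% each way, below the 18.1% higher and 18.5% lower of all tested genes. Nceh1, a hydrolase of cholesterol esters, had 13.9, 14.4, 14.4 and 12.8 CPM with vehicle and 24.8, 24.3, 25.9 and 24.7 CPM with melatonin (0.84 ± 0.073, adjusted p = 2.1e-05). The esterifying gene Soat1 thus fell while this ester hydrolase gene rose. Scp2, a sterol carrier of peroxisomes and cytosol, went from 111 ± 1.3 to 162 ± 3.21 CPM (0.55 ± 0.051). The lipid transfer genes Osbpl5 (-0.32 ± 0.061) and Gramd1c (-0.78 ± 0.25, adjusted p = 0.035) fell, the latter at 1.07 ± 0.202 against 0.62 ± 0.156 CPM and lost under 10 of 17 alternatives.

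Lipoprotein and lipid uptake receptors moved in both directions, 3 of 9 higher (33.3%) and 4 lower (44.4%). The fatty acid translocase gene Cd36, also an adipocyte and macrophage gene, had 13.9, 13.1, 10.9 and 12.7 CPM with vehicle and 70.05, 76.7, 78.4 and 52.9 CPM with melatonin (2.46 ± 0.13, adjusted p = 1.5e-06). Scarb1, the receptor of high-density lipoprotein, rose by 0.58 ± 0.08. Olr1, the receptor of oxidised low-density lipoprotein, had 10.6, 13.8, 12.3 and 8.96 CPM with vehicle and 1.06, 1.39, 1.21 and 1.56 CPM with melatonin (-3.13 ± 0.18, adjusted p = 1.7e-06). Vldlr, whose receptor MYLIP marks for degradation, went from 48.1 ± 2.83 to 25.7 ± 1.86 CPM (-0.90 ± 0.078).

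Of 6 genes of oxysterol and bile acid synthesis, 1 rose (16.7%) and 2 fell (33.3%). Cyp7b1, which further hydroxylates the product of Ch25h, had 44.7, 44.2, 46.6 and 44.1 CPM with vehicle and 19.3, 19.0, 18.7 and 20.8 CPM with melatonin (-1.21 ± 0.066, adjusted p = 1.4e-06). The genes that make and further convert the Ch25h product were thus both lower with melatonin. Hsd11b1, an enzyme of glucocorticoid activation that also reduces an oxysterol, went from 26.8 ± 3.74 to 8.97 ± 1.47 CPM (-1.58 ± 0.14). Cyp46a1, another cholesterol hydroxylase gene, rose from 1.0 ± 0.209 to 1.96 ± 0.293 CPM (0.96 ± 0.20, adjusted p = 0.0043).

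**Figure D5:**
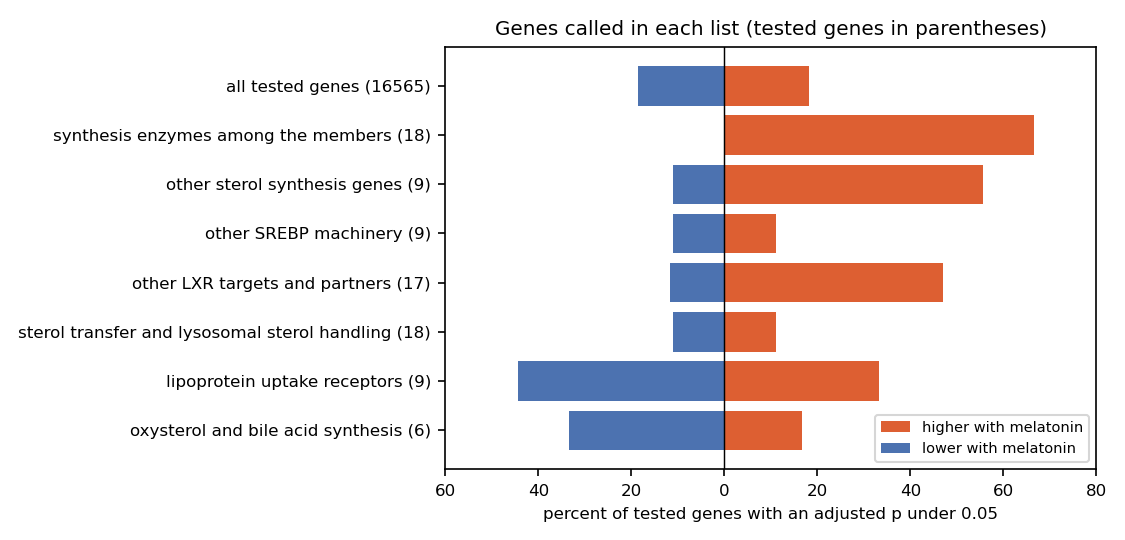
Bars give the percent of tested genes with an edgeR adjusted p under 0.05, higher to the right and lower to the left, for all tested genes, the 18 synthesis enzymes and the 6 further lists, with the number of tested genes in parentheses. The synthesis enzymes reach 66.7% higher and 0% lower, against 18.1% and 18.5% over all tested genes. All lists were chosen with earlier results of these data known.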

How the data were processed

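RNA was sequenced from FAPs treated for 24 h with vehicle (4 libraries) or melatonin (4). The authors deposited raw counts per Ensembl gene, whole numbers for 20781 genes, each with at least 11 counts in total. They list DESeq2 1.12.4, StringTie 1.3.3b, bedtools 2.26.0, HISAT2 2.0, Trimmomatic 0.36, FastQC 0.11.2 and build mm10 in the submitters' processing notes. Which program counted reads, and with what annotation and strand setting, is not given in the sources used here. Columns with a control prefix were read as vehicle, the only other group.

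Symbols, positions and exon lengths came from GENCODE M21 (GRCm38, 20720 IDs matched), and promoters from RefSeq (GRCm38.p6). Genes were filtered with filterByExpr (16565 kept) and tested with edgeR 4.0.16 (TMM, robust quasi-likelihood F-test, Benjamini-Hochberg, threshold 0.05), with standard errors from the F statistic. Counts were also simulated for 16303 genes, 98 of them changed by 1.5-fold and 96 by 2-fold. The edgeR test recovered 70.8% of the 2-fold and 31.6% of the 1.5-fold changes with 10 false calls. Library pairs within a group differed by more than sampling noise (chi-square per gene 25.4 to 81.1). The largest values, 64.1 to 81.1, were those of pairs with melatonin replicate 4. Other melatonin pairs gave 25.4 to 34.9 and vehicle pairs 31.6 to 45. The 31 genes and all lists were chosen with earlier results of these data known. All 31 genes are named, and from each further list the 2 genes with the smallest p that passed in each direction. Pdgfra, Ly6a, Dpp4, Pi16, Dcn, Cxcl14, Lyz2, C1qa, C1qb, C1qc, Mrc1, Csf1r, Cd14 and Tek were chosen after their values were seen. So were the genes named for overlapping exons. The tests were repeated with limma-voom (limma 3.58.1), DESeq2 1.42.0, other scaling, filters and thresholds, a replicate block, and each library left out.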

Additional observations from a re-analysis of the deposited data

Results flagged for a closer look

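In 10 of 102 sets of 4 library values, 1 library lay far from the other 3 by Dixon's criterion, which chance passes in about 1 of 20 sets. Vehicle replicate 4 was high for 3 genes: Hmgcs1 at 161.6 CPM (others 145 to 146.9), Sqle at 138.1 CPM (94.72 to 97.56) and Nr1h3 at 15.22 CPM (11.16 to 11.37). Vehicle replicate 1 was low for Fdps at 146.1 CPM (others 170.1 to 171.1) and Ebp at 39.09 CPM (44.14 to 45.07). Por was high in vehicle replicate 2 at 113.6 CPM (others 94.99 to 96.54). Melatonin replicate 4 was high for Cyp51 at 157.2 CPM (others 136.3 to 139.5) and Soat1 at 58.32 CPM (52.97 to 53.7), and low for Abca3 at 53.33 CPM (70.88 to 73.39). Lss was high in melatonin replicate 1 at 69.06 CPM (others 58.87 to 59.79).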

How the results depend on the processing

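The counts of the 31 genes called higher and lower stayed within 1.5 times 17 and 4 under all 18 alternatives, except that 10 were higher when a fold of at least 1.2 was required. That setting called 3500 of all tested genes and an adjusted p under 0.01 called 3865, in place of 6054. Leaving out 1 library gave 16 to 19 genes higher, 3 to 4 lower, and 5098 to 6566 of all tested genes. The median log2 fold change of 0.31 became 0.46 with library totals and 0.27 to 0.36 with 1 library left out. No synthesis enzyme was called lower in any of the 18 alternatives, and 6 to 14 were higher. Of the 21 genes called, 13 kept their call throughout and 8 lost it in at least 1 alternative, and of the 10 others 5 were called in at least 1. None reversed. Libraries with the same replicate number did not deviate together (correlations -0.07 to 0.04 across genes, 0 of 8 libraries closest to their own number), and with the replicate block 15 genes were higher, 3 lower and 4942 of all tested genes passed. In the simulation most 1.5-fold changes were missed at this number of libraries. It changed only 98 genes by 1.5-fold and 96 by 2-fold, where the data called 6054, so its recovery need not hold for these genes. A gene that did not pass is still not shown to be unchanged.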
